A study of Mus musculus with 7 samples.

Results

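The integrins and laminins are the receptors and the matrix proteins through which cells hold on to each other and to basement membranes. The members were the protein-coding genes of the count table whose symbols name an integrin alpha chain, an integrin beta chain or a laminin chain, 37 of 55487 genes: 18 integrin alpha, 8 integrin beta, 5 laminin alpha, 3 laminin beta and 3 laminin gamma genes. Of these, 7 are set apart as leukocyte integrins (Itgal, Itgam, Itgax, Itgae, Itgb2, Itgb7 and Itga4), and 30 form the rest. All 37 passed the filter on low counts. The samples were inguinal fat, a white depot under the skin of the groin, from NOD/ShiLtJ mice, which are prone to autoimmune diabetes and here had blood glucose readings between 190 and 230 mg/dL. In 4 libraries, called imBAT, the mice had received the fraction above 100 kDa of buffer conditioned by brown adipocytes, under the skin for 7 days at 1.5 mg/kg body weight. In 3 libraries, called sham, the mice had received KRBH buffer, also for 7 days. Tissue was collected 2 to 8 weeks after injection, and neither the week, the age nor the number of mice behind a library was given. P-values therefore measure the spread between libraries, which may be technical in part.

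Each integrin is a pair of 1 alpha and 1 beta chain, and the alpha chain largely sets the ligand. The beta2 chain (Itgb2) joins the alphaL, alphaM, alphaX and alphaD chains on white blood cells, while the beta7 chain (Itgb7) joins alpha4 and alphaE on lymphocytes. Most other alpha chains join beta1 (Itgb1) and bind laminins, collagens or RGD-containing proteins such as fibronectin. A laminin is a trimer of 1 alpha, 1 beta and 1 gamma chain that polymerises under cells, and every mature adipocyte, blood vessel and nerve fibre lies on such a sheet.

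The count table held 43360208 to 63650016 counts per imBAT library and 41025786 to 44983250 per sham library. Levels are TMM-scaled CPM, the counts of a gene relative to a library total that was scaled between libraries, and a gene was called at an adjusted p under 0.05 over all 26393 tested genes. Markers of cell types differed widely between the groups. The 15 white adipocyte markers summed to 17390 to 40115 CPM in imBAT and 2835 to 5762 CPM in sham, and all 15 rose. The 12 T cell and 10 B cell markers all fell, with T cell sums of 210.2 to 667.1 CPM in imBAT and 1264 to 1578 CPM in sham. Of 8 lymph node stroma and venule genes 7 fell, and their sums were 284.1 to 582.7 CPM in imBAT and 880.2 to 1290 CPM in sham. Adipocyte markers were thus present in both groups, beside lymphocyte and lymph node genes, and no gene of these 4 lists was at 0 in every library. In bulk tissue, fewer cells of a type and less RNA per cell cannot be told apart.

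Of the 37 integrin and laminin genes, 25 rose and 7 fell in imBAT, and 5 were not called. Over all tested genes, 24.3% rose and 19.3% fell (43.5% in either direction). These shares are also the background for the counts of each marker and partner list. The leukocyte integrins and the rest moved apart. Of the 7 leukocyte integrins 6 fell and 1 rose, and their median log2 fold change was -1.13. Of the 30 others 24 rose and 1 fell at a median of 1.03, and all 11 laminin genes rose. The median over all tested genes was -0.01. The values of the groups did not overlap for 32 of the 37 genes, where this held for 52.0% of all tested genes. Under upper-quartile scaling, which moved the median of all genes to -0.25 and the share of calls that were higher to 36.6% (55.8% with TMM), 19 members rose and 9 fell. Of all 26393 tested genes, 4722 rose and 8180 fell under that scaling.

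**Figure D1:**
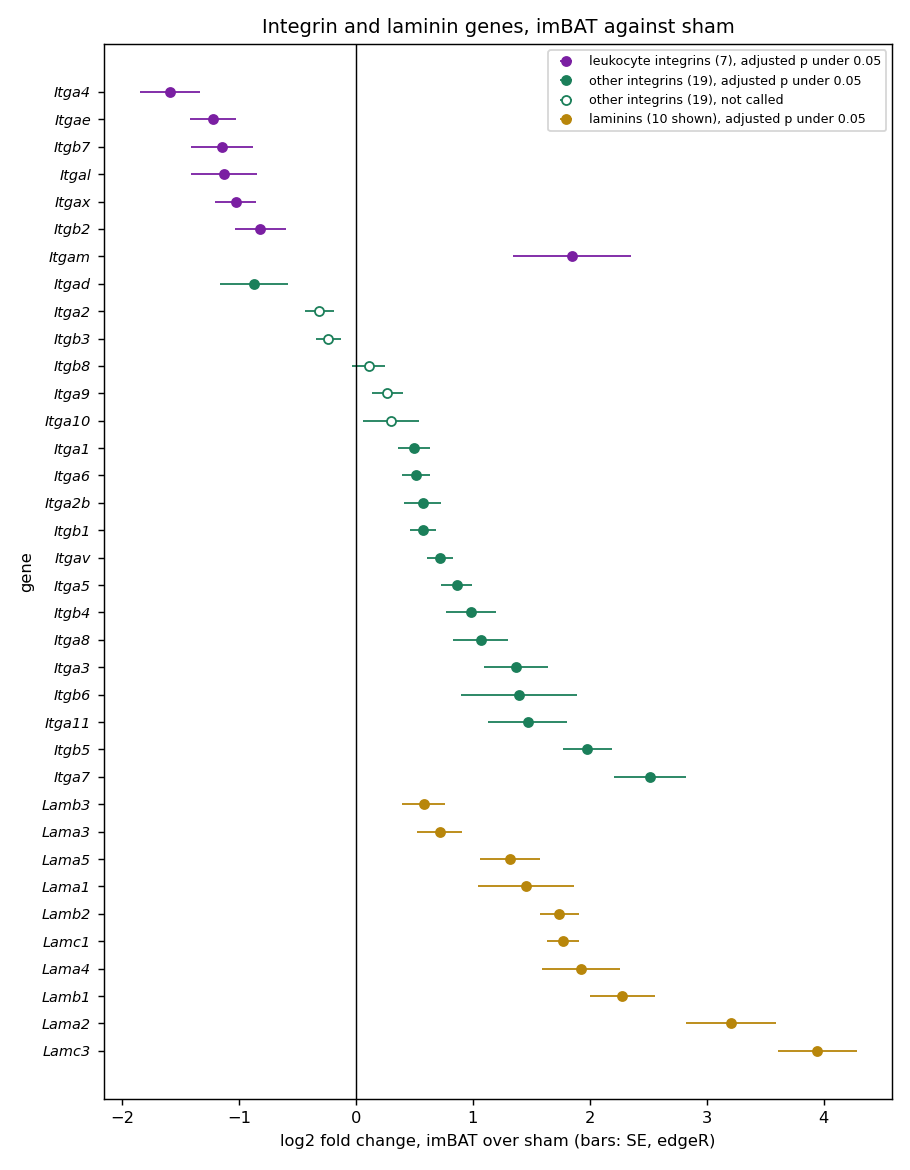
Log2 fold change of the genes, 10 laminin chains among them, imBAT over sham, with its SE from edgeR (horizontal axis), by gene (vertical axis); filled points were called and open points were not. The leukocyte integrins lie left of 0 except Itgam at 1.85, and the laminin genes lie between 0.58 and 3.94.

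Among the beta2 integrins of leukocytes, Itgal encodes the alphaL chain of LFA-1, with which lymphocytes bind ICAM proteins. Itgal stood at 177.3, 145.9, 64.7 and 126.3 CPM in imBAT libraries 1 to 4, against 265.7, 286.8 and 290.4 CPM in sham libraries 1 to 3. All imBAT values lay below all sham values, and imBAT library 3 was the lowest. Its log2 fold change was -1.13 ± 0.28 (SE, adjusted p = 0.0128). Itgb2, the shared beta2 chain, stood at 162.9, 118.0, 76.4 and 114.0 CPM in imBAT, against 207.5, 193.9 and 221.1 CPM in sham. The groups did not overlap, and the log2 fold change of -0.82 ± 0.22 was called (adjusted p = 0.0162), though not without sham library 3 (adjusted p = 0.0592). Itgax, the alphaX chain (CD11c) of dendritic cells and macrophages, reached 8.36 to 14.2 CPM in imBAT and 21.7 to 25.8 CPM in sham, a fall of 1.03 ± 0.18 (adjusted p = 0.00318). Itgad, the alphaD chain, which also pairs with beta2 but is counted here among the rest, was scarce, at 0.86 to 1.77 CPM in imBAT and 2.29 to 3.46 CPM in sham. It was the only member of the rest to fall (log2 fold change -0.87 ± 0.29, adjusted p = 0.0403), and the call was lost without imBAT library 1 or 2 or any sham library (adjusted p 0.0567 to 0.169).

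The integrins that guide lymphocytes to tissues fell as well. Itga4, the alpha4 chain that binds VCAM-1 and MAdCAM-1, stood at 107.0, 113.9, 54.1 and 101.2 CPM in imBAT, against 218.5, 342.2 and 290.1 CPM in sham. All imBAT values were far below the lowest sham value, and the log2 fold change was -1.59 ± 0.26 (adjusted p = 0.00255), the largest fall of the 37. Itgb7, its partner in gut-homing lymphocytes, stood at 114.9, 133.0, 53.4 and 95.9 CPM in imBAT, against 213.1, 202.5 and 244.0 CPM in sham (log2 fold change -1.15 ± 0.26, adjusted p = 0.0094). Itgae, the alphaE chain (CD103) with which lymphocytes and some dendritic cells bind E-cadherin, had 14.7 to 28.8 CPM in imBAT and 51.2 to 54.1 CPM in sham, a fall of 1.22 ± 0.20 (adjusted p = 0.00267). Each of the 6 leukocyte integrins that fell was lowest of its group in imBAT library 3. That library also had the lowest T cell and B cell marker sums and the highest adipocyte marker sum of the 4. The part of cell content in these falls was not tested.

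Itgam went the other way. It encodes alphaM (CD11b), the partner of beta2 in the complement receptor of macrophages and neutrophils. Itgam stood at 28.9, 4.64, 17.5 and 15.8 CPM in imBAT libraries 1 to 4, against 4.82, 4.56 and 4.56 CPM in sham. In 3 imBAT libraries it was above every sham library, while imBAT library 2 lay within the sham range. Its log2 fold change was 1.85 ± 0.51 (adjusted p = 0.0188), with the call lost without imBAT library 3 or any sham library and without the expression filter (adjusted p 0.0512 to 0.0738). Adgre1, the macrophage antigen F4/80, had 232.4, 20.3, 175.3 and 124.3 CPM in imBAT and 10.0 to 14.2 CPM in sham, so the 4 imBAT libraries had the same order as for Itgam (Adgre1 and Mrc1 were picked after their values were seen). Of the 10 macrophage markers 7 rose and none fell, and their sum was 871.8 to 2386 CPM in imBAT and 1123 to 1251 CPM in sham, with imBAT library 2 below the sham libraries. Of 6 tested neutrophil markers 1 rose and 1 fell, where 24.3% of all tested genes rose and 19.3% fell. The neutrophil sums were 11.2 to 54.0 CPM in imBAT, also lowest in library 2, and 17.9 to 21.9 CPM in sham. Their part in the rise of Itgam was not tested. In the annotation 68.7% of the exon bases of Itgam also belong to Gm49368 on the same strand, which had at most 1 count in a library. How reads in shared exons were counted is not given in the sources used here, so the level of Itgam is uncertain in both groups.

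**Figure D2:**
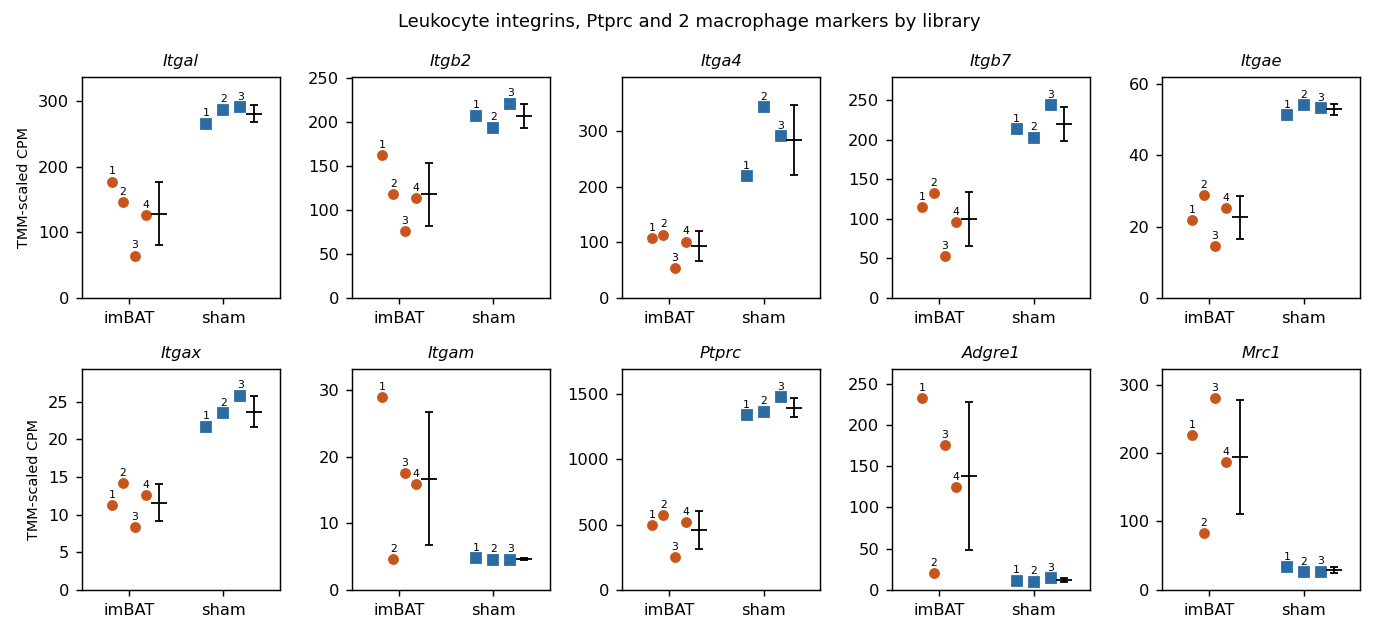
TMM-scaled CPM in each library (points, numbered by library; vertical axes from 0) of the 7 leukocyte integrins, the pan-leukocyte gene Ptprc and the macrophage markers Adgre1 and Mrc1, imBAT left and sham right, with mean and SD in black. Itgam and the macrophage markers are high in imBAT libraries 1, 3 and 4 and lowest of the imBAT group in library 2, while the other 6 integrins and Ptprc are lower in every imBAT library than in every sham library.

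Itgal, Itgam, Itgax and Itgad lie on chromosome 7 of GRCm38, all on the plus strand. Itgal (127296260 to 127335138) is separated from the others, and Itgam (128062640 to 128118491), Itgax (128129547 to 128150657) and Itgad (128154376 to 128223816) follow each other. Only 11.1 kb separate Itgam, which rose, from Itgax, which fell. The starts of these neighbours are printed because they are close in the genome and moved in opposite directions, and those of Lamb2 and Lama2 because these laminins had the smallest p-values among those in the promoter table used. Itgax, Lamb2 and Lama2 were chosen for printing after their values were seen. Each sequence covers 250 bases before to 50 bases after the RefSeq start of the gene on GRCm38.p6, 5′ to 3′ on the gene's strand. Capitals mark GAGGAA or its reverse complement TTCCTC, a core form of the site of PU.1, a transcription factor of myeloid cells and B cells.
Itgam, chr7:128062390-128062689, plus strand: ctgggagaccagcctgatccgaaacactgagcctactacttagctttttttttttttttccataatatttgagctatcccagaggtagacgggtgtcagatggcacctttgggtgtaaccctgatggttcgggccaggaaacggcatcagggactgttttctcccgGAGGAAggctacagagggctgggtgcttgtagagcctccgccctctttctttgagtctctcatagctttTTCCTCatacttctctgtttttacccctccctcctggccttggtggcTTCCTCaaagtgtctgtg
Itgax, chr7:128129300-128129599, plus strand: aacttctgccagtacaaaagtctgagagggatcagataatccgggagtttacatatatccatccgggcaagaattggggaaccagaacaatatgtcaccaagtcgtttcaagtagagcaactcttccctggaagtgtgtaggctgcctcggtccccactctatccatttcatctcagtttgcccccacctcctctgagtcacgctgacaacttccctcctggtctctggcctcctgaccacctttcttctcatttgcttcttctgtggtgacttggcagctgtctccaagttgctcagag
Lamb2, chr9:108479612-108479911, plus strand: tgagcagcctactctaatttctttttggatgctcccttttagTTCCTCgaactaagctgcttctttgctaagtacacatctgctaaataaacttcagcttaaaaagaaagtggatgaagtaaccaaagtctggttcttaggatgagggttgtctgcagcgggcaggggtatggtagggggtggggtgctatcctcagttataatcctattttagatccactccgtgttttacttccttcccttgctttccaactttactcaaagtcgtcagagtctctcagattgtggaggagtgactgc
Lama2, chr10:27616893-27617192, minus strand: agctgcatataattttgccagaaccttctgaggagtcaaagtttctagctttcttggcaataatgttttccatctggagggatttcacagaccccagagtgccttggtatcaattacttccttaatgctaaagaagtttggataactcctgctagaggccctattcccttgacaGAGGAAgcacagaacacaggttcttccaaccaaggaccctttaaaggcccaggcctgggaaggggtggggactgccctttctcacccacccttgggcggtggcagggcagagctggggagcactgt
The Itgam promoter held the motif at 84 and 15 bases before the start and 33 bases after it, Lama2 at 76 and Lamb2 at 208 bases before it, and the Itgax window did not hold these letters. Over all members with an entry, the motif was found in 2 of 4 promoters of leukocyte integrins (Itgam and Itgb7) and in 12 of 22 of the rest. Of all 32851 promoters of the same length, 28.3% held it. A match describes the letters of the window and does not show binding.

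Levels of the leukocyte integrins were next set against Ptprc, the pan-leukocyte antigen CD45, in the same library. Ptprc itself stood at 495.7, 572.8, 248.1 and 518.6 CPM in imBAT and 1338, 1364 and 1475 CPM in sham. The log2 ratio of Itgb2 to Ptprc was -1.94 ± 0.34 in imBAT and -2.75 ± 0.06 in sham (SD, n = 4 and 3), and that of Itgax was -5.26 ± 0.25 in imBAT and -5.88 ± 0.06 in sham. Itgal, Itgb7 and Itgae were each higher relative to Ptprc by 0.41 to 0.45 on the log2 scale. For these 5 genes and Itgam the imBAT ratios all lay above the sham ratios, which was true of 80.1% of all tested genes. The ratio of Itga4 was -2.27 ± 0.08 in imBAT and -2.32 ± 0.31 in sham, and the groups overlapped. For the 6 that did not overlap the two-sided exact permutation test over libraries gave p = 0.0571, the smallest that 4 against 3 libraries allow, and adjusted p = 0.0667 over the 7 ratios. Among the T cell markers the ratio to Ptprc was higher without overlap for 0 of 12 genes, with a median difference of 0.04, and among the B cell markers for 0 of 10, with a median of -0.19 and 2 of 10 lower without overlap. Among the dendritic cell markers the ratio was higher without overlap for 4 of 8, with a median of 0.85, and among the macrophage markers for 10 of 10, with a median of 3.14. Measured against Itgb2 in place of Ptprc, the log2 differences of Itgal, Itgb7, Itgae, Itgax and Itga4 were all negative, between -0.76 (Itga4) and -0.19 (Itgax), and that of Itgam was 2.44. Of these 6 ratios only those of Itga4, Itgal and Itgam did not overlap between the groups (exact permutation p = 0.0571, adjusted p = 0.114). The share of all tested genes that separate against Itgb2 was not computed, so this count has no background.

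**Figure D3:**
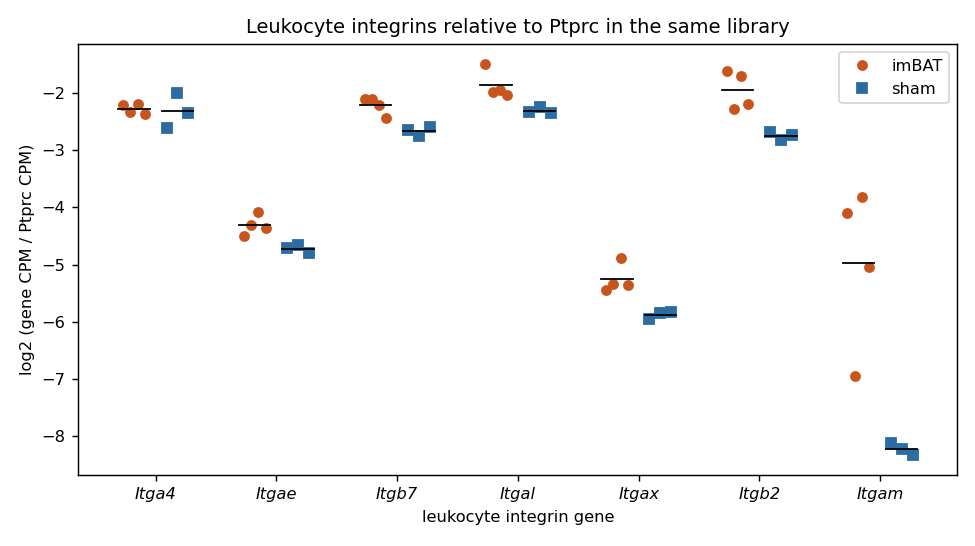
Log2 ratio of each leukocyte integrin to Ptprc in the same library (vertical axis) by gene (horizontal axis), imBAT in circles and sham in squares, with group means as lines. The groups overlap for Itga4 alone, and the widest gap is that of Itgam, at -4.98 in imBAT and -8.23 in sham.

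All 11 laminin chains rose, and together they summed to 2425 to 3207 CPM in imBAT and 643.6 to 981.5 CPM in sham. Sham library 2 was the lowest of sham for 10 of the 11, and its adipocyte and epithelial marker sums, 2835 and 101.9 CPM, were the lowest of sham as well. The gamma1 chain Lamc1, part of most laminins, stood at 650.0, 541.3, 730.6 and 566.0 CPM in imBAT, against 198.1, 171.9 and 177.6 CPM in sham. Even the lowest imBAT library was well above the highest sham library, and the gene rose 3.41-fold (log2 fold change 1.77 ± 0.14, adjusted p = 0.000767). The main beta chains of the same trimers rose too. Lamb1 had 444.0, 369.6, 639.9 and 428.0 CPM in imBAT, against 134.0, 66.6 and 90.4 CPM in sham (log2 fold change 2.28 ± 0.28, adjusted p = 0.00115). Lamb2, common at vessel walls and synapses, had 327.4, 337.8, 399.8 and 308.4 CPM in imBAT, against 129.4, 85.1 and 94.0 CPM in sham (1.74 ± 0.17, adjusted p = 0.000816). Library 3 was the highest of the imBAT group for all 3 genes.

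The largest fold changes of the 37 genes were those of Lamc3 and Lama2. Lamc3, the less common gamma3 chain, stood at 61.7, 47.8, 54.8 and 30.9 CPM in imBAT, against 4.04, 1.91 and 3.57 CPM in sham, a 15.4-fold rise (log2 fold change 3.94 ± 0.34, adjusted p = 0.000767). Lama2, the alpha2 chain of muscle and nerve basement membranes whose loss causes a congenital muscular dystrophy, stood at 350.5, 219.3, 343.8 and 299.6 CPM in imBAT, against 42.3, 14.6 and 41.5 CPM in sham, a 9.25-fold rise (3.21 ± 0.39, adjusted p = 0.0011). In both genes every imBAT library exceeded every sham library several times over. Of 7 tested skeletal muscle markers 5 rose and 1 fell, with a sum of 14.0 to 99.5 CPM in imBAT and 11.1 to 17.5 CPM in sham. Of 9 Schwann cell and nerve markers 4 rose and none fell, with sums of 281.6 to 395.3 CPM in imBAT and 182.1 to 329.0 CPM in sham. Of 10 adipose progenitor markers 7 rose and 2 fell, with sums of 1024 to 1960 CPM in imBAT and 721.5 to 891.3 CPM in sham. All 15 white adipocyte markers rose, as given above. The part of muscle, nerve, progenitor and adipocyte content was not tested.

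Lama4, the alpha4 chain of adipocyte and endothelial basement membranes, stood at 288.7, 239.2, 536.5 and 257.3 CPM in imBAT, against 115.4, 62.3 and 83.2 CPM in sham. Library 3 lay far above the other imBAT libraries, and the log2 fold change of 1.93 ± 0.33 (adjusted p = 0.00319) was 1.54 without it. The adipocyte marker sum was highest in that library too, and 9 of 10 endothelial markers rose, with sums of 837.0 to 1167 CPM in imBAT and 450.8 to 608.8 CPM in sham. Their part was not tested. Lama5, the alpha5 chain of mature vessel and epithelial basement membranes, had 578.3, 606.3, 348.4 and 364.8 CPM in imBAT, against 243.2, 170.8 and 157.0 CPM in sham (1.32 ± 0.25, adjusted p = 0.00467). Here libraries 1 and 2 were the high ones. Lama1, the alpha1 chain best known from the embryo, had 35.1 to 71.2 CPM in imBAT and 8.29 to 29.6 CPM in sham (1.45 ± 0.41, adjusted p = 0.0209, 0.0724 without sham library 3, and 0.0903 without the expression filter).

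Lama3 and Lamb3 encode chains of the anchoring laminin under skin and mammary epithelium. Both were called, but not in every alternative. Lama3 had 40.6 to 69.9 CPM in imBAT and 26.4 to 34.3 CPM in sham (log2 fold change 0.72 ± 0.19, adjusted p = 0.0166, and 0.067 without sham library 2 and 0.0673 under upper-quartile scaling). Lamb3 had 27.4 to 45.7 CPM in imBAT and 21.1 to 27.8 CPM in sham, so the groups overlapped, and its call (0.58 ± 0.19, adjusted p = 0.0337) was lost without any library except imBAT 3 (adjusted p 0.0522 to 0.126) and under upper-quartile scaling (0.35, adjusted p = 0.147). All 8 epithelial markers rose, with sums of 683.5 to 1376 CPM in imBAT, highest in library 2, and 101.9 to 340.8 CPM in sham, and both chains were highest in imBAT library 2 and lowest in sham library 2, as was the marker sum. The part of epithelial content was not tested.

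**Figure D4:**
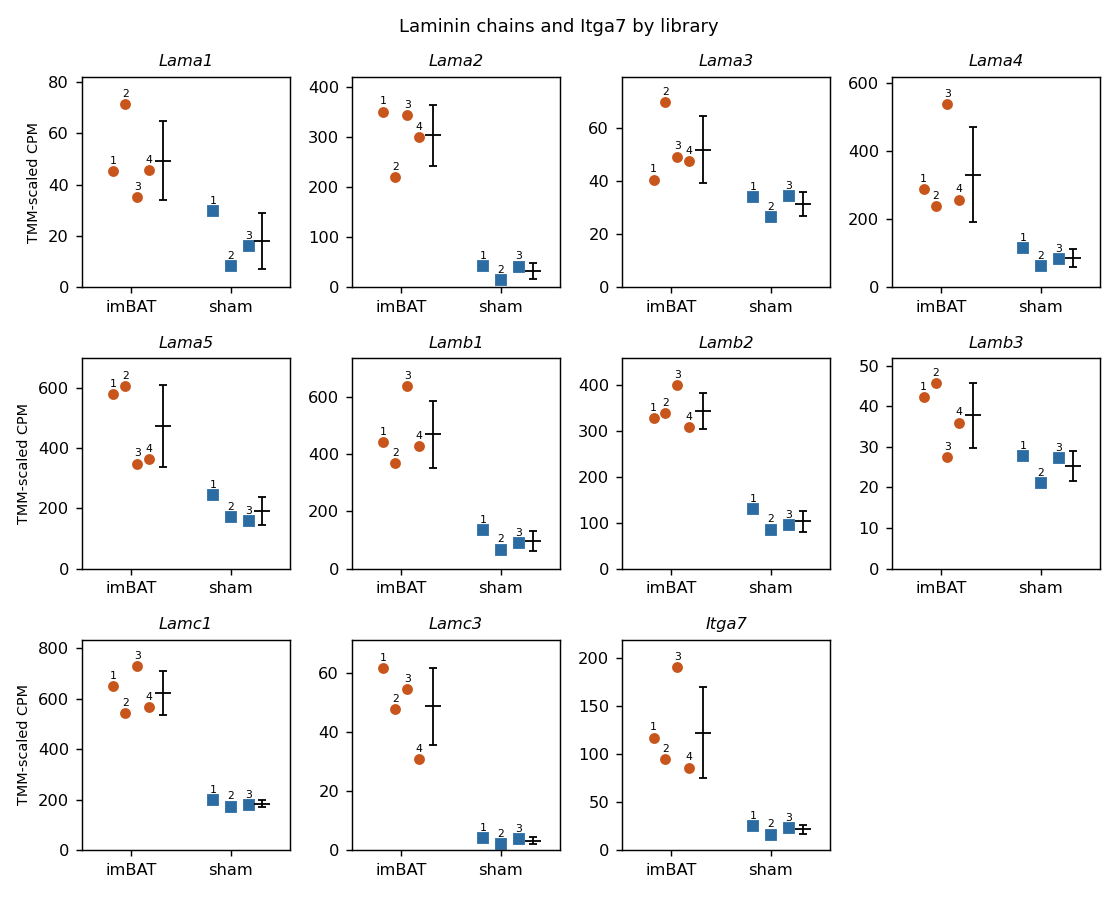
TMM-scaled CPM in each library (points, numbered by library; vertical axes from 0) of 10 laminin chains and Itga7, imBAT left and sham right, with mean and SD in black. The groups overlap for Lamb3 only, and Lama4, Lamb1, Lamb2, Lamc1 and Itga7 peak in imBAT library 3.

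Of the integrins that bind laminin, Itga7 had the largest fold change. It encodes alpha7, a laminin receptor abundant in muscle, including that of vessels. Itga7 stood at 116.8, 94.9, 190.2 and 85.6 CPM in imBAT, against 25.0, 15.9 and 23.0 CPM in sham, a 5.72-fold rise (log2 fold change 2.51 ± 0.31, adjusted p = 0.00114), the largest of any integrin. Itga3, the alpha3 chain of epithelial and vascular cells, had 58.7, 108.1, 71.3 and 61.2 CPM in imBAT, against 39.5, 21.7 and 25.9 CPM in sham (1.37 ± 0.27, adjusted p = 0.00539). Itga6, the alpha6 chain that joins beta1 or beta4, had 180.2 to 239.0 CPM in imBAT and 133.2 to 160.1 CPM in sham, a smaller rise of 0.51 ± 0.12 (adjusted p = 0.0105, and 0.0526 without sham library 2), and upper-quartile scaling gave 0.28 (adjusted p = 0.0892). Itgb4, which with alpha6 anchors epithelium in hemidesmosomes, had 85.7 to 116.4 CPM in imBAT and 38.8 to 71.9 CPM in sham (0.99 ± 0.21, adjusted p = 0.00719). Pericyte and smooth muscle markers, of which 7 of 10 rose and 1 fell, summed to 878.5 to 1340 CPM in imBAT and 494.4 to 626.1 CPM in sham. Their sum was highest in imBAT library 2, as were Itga3, Itga6 and Itgb4, while Itga7 was highest in library 3. The epithelial marker sum was also highest in library 2, and the adipocyte marker sum in library 3. The part of these cell types in the rises was not tested.

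Itgb1, the common partner of these chains, stood at 338.4, 303.3, 369.5 and 294.3 CPM in imBAT, against 227.8, 214.6 and 215.3 CPM in sham. The groups did not overlap, and its log2 fold change was 0.57 ± 0.11 (adjusted p = 0.00449), beside 2.51 for Itga7 and 1.37 for Itga3. Among the collagen receptors, Itga11, the alpha11 chain of fibroblasts, had 29.2, 17.0, 47.0 and 33.9 CPM in imBAT, against 9.92, 9.20 and 15.3 CPM in sham (1.47 ± 0.34, adjusted p = 0.00911). Itga1 had 87.5 to 118.6 CPM in imBAT and 70.0 to 77.0 CPM in sham (0.50 ± 0.14, adjusted p = 0.0183, and up to 0.063 without sham library 1 or 2), and upper-quartile scaling gave 0.26 (adjusted p = 0.161). Itga2 had 13.2 to 16.4 CPM in imBAT and 18.1 to 20.0 CPM in sham (log2 fold change -0.31 ± 0.12). With TMM scaling and the default filter, edgeR did not call it (adjusted p = 0.0666). Upper-quartile scaling, the filter of at least 1 CPM, DESeq2 and limma voom each called it lower (adjusted p 0.00949 to 0.0428). Itga10, the alpha10 chain of cartilage, had 3.14 to 4.48 CPM in imBAT and 2.61 to 4.24 CPM in sham and was not called (0.30 ± 0.24, adjusted p = 0.328). In the annotation 33.5% of its exon bases also belong to Gm42957 on the same strand, so its level is uncertain.

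The receptors of RGD-containing matrix proteins rose mildly on the alpha side. Itgav, the alphaV chain, had 141.4, 150.7, 121.2 and 133.8 CPM in imBAT, against 90.8, 76.1 and 82.9 CPM in sham (log2 fold change 0.72 ± 0.11, adjusted p = 0.00212). Itga5, the fibronectin receptor chain, had 47.8 to 60.8 CPM in imBAT and 25.0 to 33.4 CPM in sham (0.86 ± 0.13, adjusted p = 0.00225). Itga8, the nephronectin receptor chain of smooth muscle and mesenchyme, had 10.5 to 14.0 CPM in imBAT and 3.82 to 7.23 CPM in sham (1.07 ± 0.24, adjusted p = 0.00796). None of these 3 overlapped between the groups. The beta partners of alphaV differed. Itgb5, abundant on adipocytes and endothelium, stood at 135.4, 108.8, 140.0 and 95.0 CPM in imBAT, against 37.6, 22.3 and 31.3 CPM in sham, a 3.94-fold rise (1.98 ± 0.21, adjusted p = 0.000902). Itgb3 had 57.7 to 68.0 CPM in imBAT and 68.4 to 80.7 CPM in sham and was not called (-0.23 ± 0.10, adjusted p = 0.0958), except under upper-quartile scaling (-0.48, adjusted p = 0.00864). Itgb8, which activates latent TGF-beta with alphaV, had 17.2 to 18.7 CPM in imBAT and 13.8 to 20.0 CPM in sham and was not called either (0.11 ± 0.14, adjusted p = 0.551), and its sign turned under upper-quartile scaling (-0.12). Itgb6, the epithelial beta6 chain, had 4.30 to 4.65 CPM in imBAT and 0.42 to 2.76 CPM in sham. It was called narrowly (1.39 ± 0.49, adjusted p = 0.0489) and lost the call without any imBAT library or without sham library 1 (adjusted p 0.0742 to 0.0945). It was also lost under upper-quartile scaling, without the expression filter and with limma voom (adjusted p 0.0581 to 0.0732).

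Itga2b, the platelet chain alphaIIb that pairs with beta3, had 12.8 to 17.95 CPM in imBAT and 10.2 to 12.1 CPM in sham (log2 fold change 0.57 ± 0.16, adjusted p = 0.0182, and 0.0748 without sham library 3), and upper-quartile scaling gave 0.33 (adjusted p = 0.112). Of 9 platelet and megakaryocyte markers 5 were tested, 2 rose (Pf4 and Ppbp) and 1 fell (Gp1ba), and Gp1bb, Gp6 and Gp9 stood below 1 CPM in every library. These 6 markers were picked after their values were seen. Itga9, the alpha9 chain of lymphatic vessels and smooth muscle, had 40.5 to 55.4 CPM in imBAT and 35.6 to 44.0 CPM in sham and was not called (0.27 ± 0.13, adjusted p = 0.134), although limma voom called it (adjusted p = 0.0381).

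The make-up of each chain class was then compared as shares of CPM per kilobase of exon, so that chains of different length could be set side by side. Exon length was the union of all annotated exons of a gene, so the order of chains can depend on the annotation. Leukocyte chains made up 26.8% ± 7.3 of integrin alpha levels per kilobase in imBAT and 59.0% ± 4.1 in sham, and 34.2% ± 8.0 of integrin beta levels per kilobase in imBAT and 63.7% ± 2.3 in sham (SD, n = 4 and 3). Neither share overlapped between the groups, and each gave p = 0.0571 in the two-sided exact permutation test, the smallest possible (adjusted p = 0.0796 over 39 shares). Of these 39 shares, 28 did not overlap. The order of the beta chains differed between the groups. In imBAT, Itgb1 led at 80.0 ± 8.4 CPM per kilobase, followed by Itgb2 at 38.6 ± 11.6, Itgb7 at 35.9 ± 12.3 and Itgb5 at 33.7 ± 6.0, which lay within each other's spread. In sham, Itgb7 at 79.4 ± 7.8 and Itgb2 at 68.0 ± 4.5 CPM per kilobase stood above Itgb1 at 53.7 ± 1.8, and Itgb5 reached 8.56 ± 2.15. Among the alpha chains Itga6 led in imBAT at 23.4 ± 2.8 CPM per kilobase, with Itgal at 19.6 ± 7.2 within its spread: in imBAT library 1 Itgal was the higher, and in library 3 it stood at 9.85. In sham Itgal led at 42.8 ± 2.0, with Itga4 at 20.3 ± 4.4.

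Within the laminins the alpha2 chain had a larger share in imBAT. Lama2 made up 20.5%, 13.4%, 20.2% and 22.7% of laminin alpha levels per kilobase in imBAT libraries, against 6.52%, 3.66% and 9.04% in sham. Lama5 was the most abundant alpha chain per kilobase in every sham library and in 3 imBAT libraries, at 42.6% ± 10.5 in imBAT and 54.8% ± 6.3 in sham. In imBAT library 3 Lama4 led with 42.6%, where it held 19.8% to 26.4% in the other imBAT libraries and 21.2% to 24.5% in sham. Lamb1 made up 42.9% ± 4.4 of the beta chains in imBAT and 31.5% ± 3.3 in sham, and Lamb3 made up 5.39% ± 1.65 in imBAT and 12.8% ± 1.8 in sham. The shares of Lama2, Lama3, Lamb1 and Lamb3 did not overlap between the groups (exact permutation p = 0.0571 and adjusted p = 0.0796 each), and those of Lama1, Lama4, Lama5 and Lamb2 did. Non-overlap held for 28 of all 39 integrin and laminin shares.

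**Figure D5:**
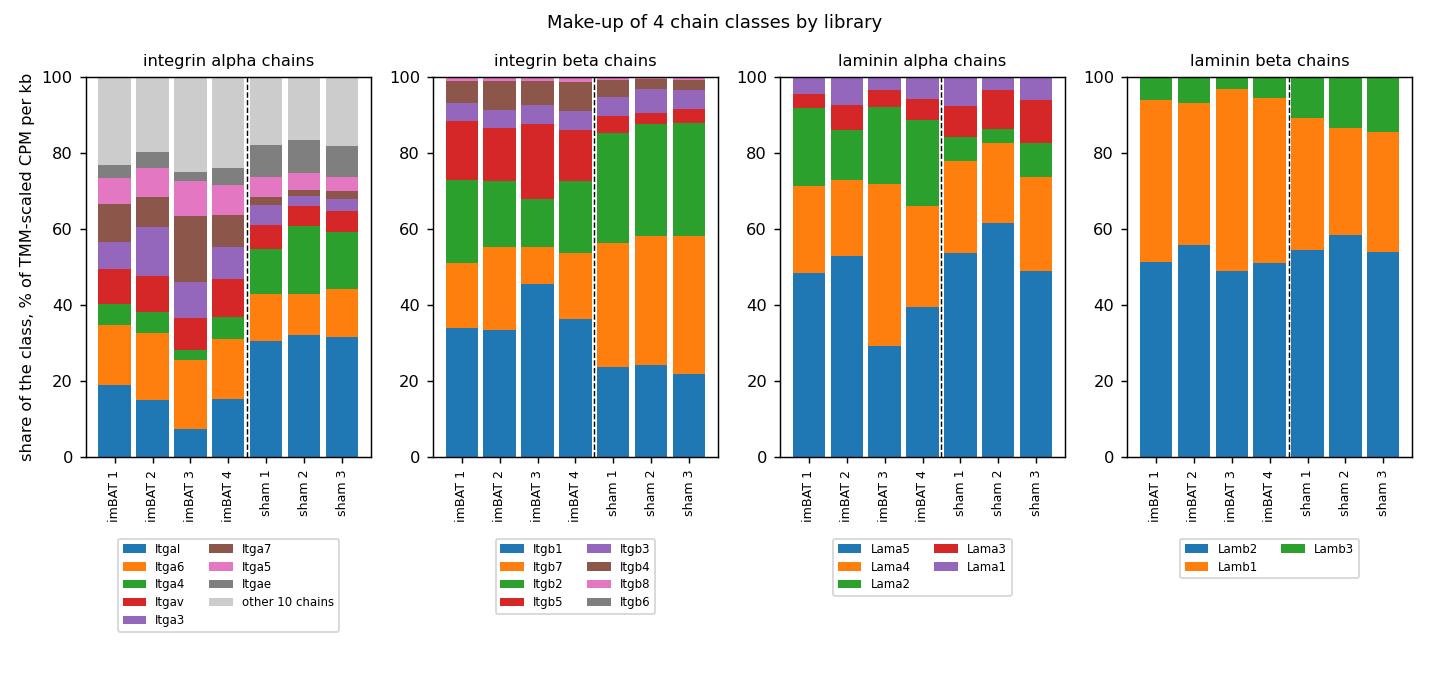
Share of each integrin alpha, integrin beta, laminin alpha and laminin beta chain in its class, in percent of TMM-scaled CPM per kilobase of exon (vertical axis), in each library (horizontal axis, imBAT left of the dashed line, sham right). Leukocyte chains such as Itgal, Itgb7 and Itgb2 take a smaller share in every imBAT library, and Lama2 and Lamb1 a larger one.

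Partners of the laminins in the basement membrane rose with them. All 27 genes of that list rose, with a median log2 fold change of 2.20. Col4a1, a chain of the type IV collagen network, had 1269, 1392, 2053 and 653.5 CPM in imBAT, against 229.6, 214.8 and 225.4 CPM in sham (2.59 ± 0.34, adjusted p = 0.00147). Nid1, nidogen, which bridges laminin to that network, had 844.3, 484.8, 1042 and 601.7 CPM in imBAT, against 106.8, 72.6 and 107.3 CPM in sham (2.96 ± 0.30, adjusted p = 0.000824). In both, the lowest imBAT library exceeded the highest sham library. The heparan sulfate proteoglycan perlecan (Hspg2) had 1581 to 2241 CPM in imBAT and 374.7 to 584.1 CPM in sham (2.01 ± 0.19, adjusted p = 0.000816), and the matrix glycoproteins Fbln2 and Smoc1 had log2 fold changes of 2.19 and 3.21. A further list of 21 genes held the dystroglycan complex with Bcam, tetraspanins, Plec and Col17a1. Of these, 17 rose and none fell, with a median of 1.21. Dag1, dystroglycan, the non-integrin laminin receptor, had 256.9 to 418.2 CPM in imBAT and 77.9 to 117.7 CPM in sham (1.70 ± 0.21, adjusted p = 0.00112), and Sspn (2.26) and the tetraspanin Cd151 (2.20) were among those that rose.

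The ligands of integrins divided by kind. Of 21 tested matrix ligands 17 rose and 3 (Vtn, Tnc and Tgfb1) fell, at a median log2 fold change of 1.52. The 3 that fell were picked for naming after their values were seen. Fibronectin (Fn1) had 1540, 498.2, 1396 and 1015 CPM in imBAT, against 217.0, 183.9 and 214.1 CPM in sham (2.44 ± 0.36, adjusted p = 0.00195), lowest of the imBAT group in library 2. The matrix ligands with the smallest p-values were Col1a2 (2.68), Postn (2.52), Thbs1 (1.39) and Col6a1 (1.80), with log2 fold changes in brackets. Of 11 tested ligands on cell surfaces 3 rose and 7 fell, with a median of -0.55. Icam1, a counter-receptor of alphaL-beta2, had 44.1 to 67.2 CPM in imBAT and 87.9 to 103.6 CPM in sham (-0.69 ± 0.15, adjusted p = 0.00701). Vcam1, a counter-receptor of alpha4-beta1, had 27.4 to 60.05 CPM in imBAT and 67.0 to 102.8 CPM in sham (-0.90 ± 0.25, adjusted p = 0.0189). Madcam1, the venule ligand of alpha4-beta7 and one of the 8 lymph node genes above, fell as well, at 1.25 to 3.84 CPM in imBAT and 5.06 to 7.32 CPM in sham (-1.01 ± 0.35, adjusted p = 0.0441). The junctional molecule Jam3 fell (-0.83). The 3 that rose were Jam2 (1.23), F11r (0.99) and Cdh1 (1.80), and Cdh1, the E-cadherin bound by alphaE-beta7, is also an epithelial marker (94.8 to 158.6 CPM in imBAT, 17.0 to 55.9 CPM in sham).

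The proteins that activate integrins and tie them to actin were divided. Of 37 genes 21 rose and 10 fell, with a median log2 fold change of 0.41, where 24.3% of all tested genes rose and 19.3% fell. The talin of most cells, Tln1, had 826.0 to 978.1 CPM in imBAT and 895.9 to 986.2 CPM in sham and was not called (adjusted p = 0.581). Of the kindlins, which bind beta tails, Fermt2 of non-blood cells had 106.7 to 183.7 CPM in imBAT and 32.6 to 56.7 CPM in sham (1.64 ± 0.26, adjusted p = 0.00235). Fermt3 of blood cells had 72.7 to 133.1 CPM in imBAT and 204.8 to 212.2 CPM in sham (-0.99 ± 0.18, adjusted p = 0.00359). The focal adhesion adaptors Tns2 (1.68), Lims2 (2.14), Tns1 (1.80) and Parva (1.58) had the smallest p-values and all rose. Under upper-quartile scaling 16 genes of this list rose and 13 fell, where 4722 of all 26393 tested genes rose and 8180 fell.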

How the data were processed

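RNA from inguinal white adipose tissue of NOD/ShiLtJ mice was sequenced in 7 libraries, 4 imBAT and 3 sham,, per the labels. Reads were aligned to Ensembl release 101 with STAR 2.7.9a, per the labels' protocols. Salmon 1.5.2, featureCounts 2.0.3 (Subread), limma and edgeR are named too, per the submitters' processing notes. Whether strand was used, and how reads shared by genes were handled, is not given in these sources, so reads in overlapping exons of the 2 strands cannot be told apart. The authors deposited raw counts per gene, with no normalization. Of 55774 rows, 287 repeated a gene with identical counts and were dropped.

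Genes were kept with edgeR's expression filter (minimum count 10), scaled by TMM and tested, imBAT over sham with no covariate, by edgeR's quasi-likelihood test (edgeR 4.0.16, R 4.3.3) with Benjamini-Hochberg adjustment over all 26393 tested genes, at a threshold of 0.05. The same steps were tested on simulated data. There edgeR recovered 41% of genes changed by a log2 of 1 and 69% of those changed by 2, with 5 false calls. A gene that was not called may still differ. Few genes were changed in the simulation, equally up and down, so it did not test the scaling. Far fewer genes were called there than in the data, so a call needed a smaller unadjusted p. The recovered shares are therefore not those of the real comparison. DESeq2 1.42.0 and limma 3.58.1 voom were alternatives, with other scalings and filters, a block on the number in the sample titles, and each library left out in turn. Shares and ratios were tested with two-sided exact permutation tests over libraries (scipy 1.17.1). Coordinates and exon lengths came from GENCODE M21 on GRCm38, which held 55227 of the 55487 genes. Promoters came from RefSeq GRCm38.p6 for 23 of the 37 members. No libraries of one group agreed within counting noise, so none was merged as a repeat deposit. Where same-numbered libraries were compared, the deviations from their group means correlated at 0.102, 0.114 and -0.0138. Differently numbered libraries gave -0.143 to 0.0401. So few correlations cannot settle whether the numbers mark pairs. The main fit did not use the numbers, and the block on them was an alternative.

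All members but 1 are named. Of each list of partners, the 4 genes with the smallest p-values and a short list of ligands and adaptors are named, and others are said to be picked after their values were seen. One member and 1 gene so chosen are counted but not reported here. The members and lists were chosen with earlier results of these data known.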

Additional observations from a re-analysis of the deposited data

Results flagged for a closer look

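The 4 imBAT libraries were searched for a library far from the other 3 in 83 sets of values, and 6 stood apart. Chance flags about 1 set in 20. In 5 of them imBAT library 3 was the one apart. Its Itga2 level was 13.2 CPM, with 16.0 to 16.4 CPM in imBAT libraries 1, 2 and 4, and its Itgad level was 0.861 CPM, against 1.66 to 1.77 CPM. The Itga4 share of integrin alpha levels per kilobase was 2.88% in that library, against 5.37% to 5.75%, and the share of leukocyte chains among integrin beta levels per kilobase was 22.3%, against 36.3% to 39.1%. Lama4 was high there, at 536.5 CPM, where its 3 companions had 239.2 to 288.7 CPM. The remaining flag was Itga2b in imBAT library 4, at 12.8 CPM against 17.2 to 17.95 CPM. The T cell marker sum was also lowest in imBAT library 3, at 210.2 CPM, where its 3 companions had 531.1 to 667.1 CPM. Its part in these values was not tested.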

How the results depend on the processing

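Of the 32 called members, 22 kept their call in all 14 alternatives, 10 lost it in at least 1, and 0 changed sign while called. Leaving out each library in turn called 20 to 23 members higher and 5 to 7 lower. It moved the median log2 fold change of the 30 other members between 0.85 and 1.26, and the calls over all genes between 7519 and 11403, lowest without sham library 2. Upper-quartile scaling gave a median of 0.80 for the 30. At an adjusted p under 0.01, 6200 genes remained past the threshold, among them 4 falling members, with Itgad, Itgal and Itgb2 lost. Of the rising members, Itga1, Itga2b, Itga6, Itgam, Itgb6, Lama1, Lama3 and Lamb3 were lost there, and all the others remained. DESeq2 called 12946 genes, limma voom 13720 and edgeR without a filter 10378, against 11491. With the title number as a block, a number shared by 3 imBAT and 3 sham libraries only, edgeR called 20 members higher and 7 lower and 10853 genes, without Itga1, Itga2b, Itgb6, Lama1 and Lamb3 (adjusted p 0.0503 to 0.0806), and these numbers are not known to pair the animals.

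Signs turned for a few uncalled values. Itgb8 was -0.12 under upper-quartile scaling and lay between -0.0114 and 0.26 with a library left out, negative without sham library 2. With a library left out, the difference in the Lama1 share lay between -1.55 and 0.53 percentage points, positive without imBAT library 3 (0.15) or sham library 1. That of Lama4 lay between -0.27, without imBAT library 3, and 7.35. The Itga4 to Ptprc log2 ratio difference lay between -0.104, without sham library 1, and 0.21. Against Itgb2, the log2 ratio differences were -0.76 for Itga4, -0.40 for Itgae, -0.35 for Itgal, -0.19 for Itgax and -0.36 for Itgb7. The cause was not tested, beyond the change of denominator. With 4 and 3 libraries, the exact tests of shares and ratios could not go below p = 0.0571, and the low-count genes Itgad and Itgb6 lost their calls in 5 and 9 of the 14 alternatives.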
